A study of Mus musculus with 2 samples.

Results

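The miR-34/miR-449 family was examined in microRNA sequencing (miRNA-seq) counts of the lung of mouse embryos at E14.5, while the airway tree is still branching. Its members were chosen by name: Mir34a, Mir34b, Mir34c, Mir449a, Mir449b and Mir449c, which make 6 of the 1973 miRNA genes counted and lie at 3 loci. Both libraries belong to 1 group, lung of B6NCrl embryos aged 14.5 days, for which the labels name neither a treatment nor an allele. Per the labels each biological replicate was the lung of a single pup, yet the sex is given as pooled male and female, so how many embryos a library holds is not settled. The collection days also differ, so that replicate, embryo and collection day cannot be told apart. The design therefore gives the level of each member, the proportions of the 3 loci within a library, and the spread between the 2 libraries, and no contrast between conditions.

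MicroRNAs are short RNAs that pair with messenger RNAs mainly through a seed near their 5′ end and repress them. The miR-34/miR-449 family is best known from multiciliated cells, the epithelial cells that carry many motile cilia and clear mucus from the airway. There it represses Ccp110, a centriolar protein that blocks the start of cilium growth, and components of Notch signalling, and mice without all of its loci fail to form normal motile cilia in the airway. Mir34a is also a direct target of the tumour suppressor p53 and restrains the cell cycle in many cell types, so it does not mark multiciliated cells alone. Mir34b and Mir34c respond to p53 as well.

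The mature sequences are shown because the seed they share defines the family, while the remaining bases differ between the sequences printed. They are RefSeq sequences on GRCm38.p6, written 5′ to 3′, with the seed (bases 2 to 8) in capitals.
mmu-miR-34a-5p: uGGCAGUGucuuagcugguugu
mmu-miR-449a-5p: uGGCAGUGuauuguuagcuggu
mmu-miR-449c-5p: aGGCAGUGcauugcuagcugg
mmu-miR-34b-5p: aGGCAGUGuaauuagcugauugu
mmu-miR-34b-3p: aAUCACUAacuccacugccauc
mmu-miR-34c-3p: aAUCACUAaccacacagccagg
Mature sequences were at hand for 5 of the 6 members; mmu-miR-34c-5p and Mir449b are named only.

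The 4 printed 5p sequences have the same seed, and among 1679 mature miRNA names in the table no other carried it. Past the seed they diverge. In ungapped comparison mmu-miR-449c-5p and mmu-miR-449a-5p were identical at 18 of 21 positions, the most of any pair, and mmu-miR-34a-5p and mmu-miR-449a-5p at 15 of 22. With inserted and deleted bases allowed the order changed. By that count mmu-miR-34a-5p was 4 changes from mmu-miR-34b-5p and 6 from mmu-miR-449a-5p. Between mmu-miR-449c-5p and mmu-miR-449a-5p there were 4 changes. On the other arm mmu-miR-34b-3p and mmu-miR-34c-3p, from 1 locus, shared a seed with each other and were identical at 17 of 22 positions, and no 3p sequence of another locus of the family had that seed. The deposited counts are per gene and do not separate the arms, so which arm was read is not known here. For the 5 hairpins with a sequence, the longest run shared with any of the 1004 other hairpins was 11 to 14 nt, shorter than the printed mature sequences of 21 to 23 nt. Reads that map to several places were assigned to no gene, and Mir449b could not be compared in this way.

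The 3 loci differ in their setting (mm10, GENCODE M21). Mir34a (ENSMUSG00000065493.1) stands alone on chromosome 4, from 150068454 to 150068555 on the plus strand. It is not in a protein-coding gene, although the last 17 bases of its hairpin overlap an exon of the gene model Gm37795 on the same strand. Mir34b (ENSMUSG00000065492.1; 51103562 to 51103645) and Mir34c (ENSMUSG00000065587.1; 51103034 to 51103110) lie on the minus strand of chromosome 9, with 451 bases between them. Both sit within an intron of 1 Btg4 transcript, which runs on the opposite strand. Mir449c (ENSMUSG00000076146.1; 113035983 to 113036091), Mir449b (ENSMUSG00000078027.1; 113037419 to 113037498) and Mir449a (ENSMUSG00000065575.1; 113037534 to 113037624) lie in this order on the plus strand of chromosome 13. All of the 3 hairpins fall in introns of Cdc20b, a gene of the Cdc20 family transcribed in multiciliated cells, on the same strand and in each of the 5 Cdc20b transcripts that overlap them. Only 35 bases separate Mir449b from Mir449a.

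All 6 members were detected, over a range of nearly 3 orders of magnitude. Levels are counts on the strand of the gene per 1000000 such counts (CPM). The denominators were 5128214 counts in replicate 1 and 2332032 in replicate 2, so that 1 count is worth 0.195 CPM in replicate 1 and 0.429 in replicate 2. Mir449a had 7573 counts (1477 CPM) in replicate 1 and 1713 (735 CPM) in replicate 2. Mir34c had 4005 counts (781 CPM) in replicate 1 and 2290 (982 CPM) in replicate 2. These 2 miRNAs, the lead products of the loci most closely tied to multiciliated cells, were the most abundant members, but Mir449a led in replicate 1 and Mir34c in replicate 2. Which cells of the lung these reads came from was not tested.

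Mir34a, the p53 target, came below both of them in each library, with 2104 counts (410.3 CPM) in replicate 1 and 1124 (482 CPM) in replicate 2. Mir34b, the partner of Mir34c, had 183 counts (35.7 CPM) in replicate 1 and 73 (31.3 CPM) in replicate 2. Close to the limit of detection were the remaining members of the Cdc20b intron. Mir449b had 12 counts (2.34 CPM) in replicate 1 and 3 (1.29 CPM) in replicate 2, and Mir449c had 11 (2.15 CPM) and 3 (1.29 CPM). A count of 0 would allow up to 3 counts, or 0.585 CPM in replicate 1 and 1.29 in replicate 2, so in replicate 2 both genes stood at that limit. Intervals and limits here cover counting error only, since amplified reads need not be separate molecules.

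**Figure D1:**
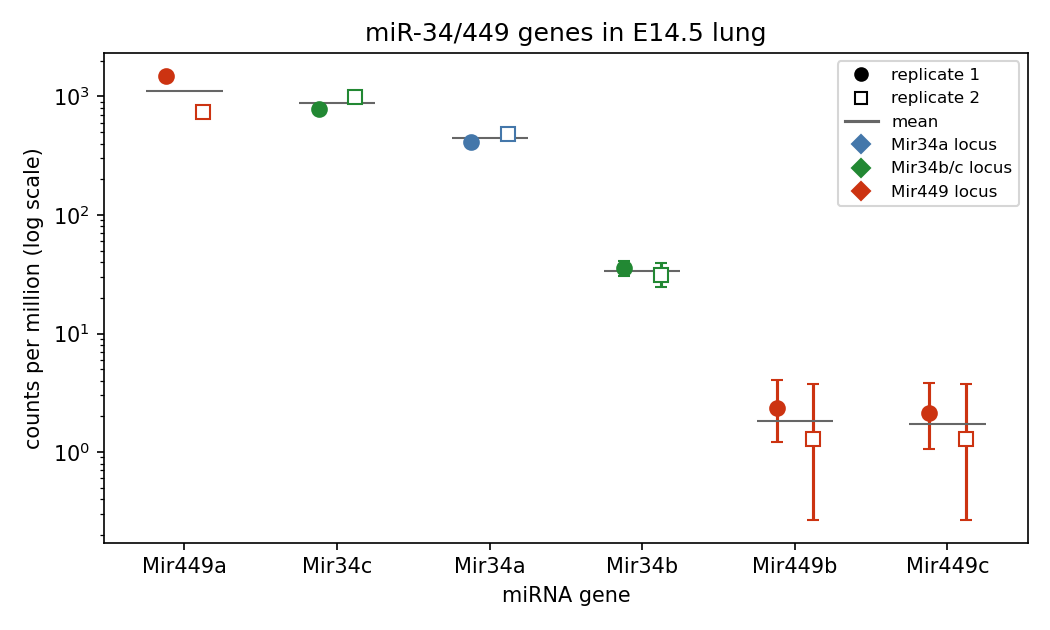
Level of each miR-34/miR-449 gene in CPM (log axis) in replicate 1 (filled circles) and replicate 2 (open squares), coloured by locus, with 95% exact Poisson intervals and a grey line at the mean of the 2 libraries. Mir449a is the highest gene in replicate 1 (1477 CPM) and Mir34c in replicate 2 (982 CPM), while Mir449b and Mir449c lie below 5 CPM in both.

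In the mean of the libraries the order was Mir449a at 1106 ± 525 CPM, Mir34c at 881 ± 142, Mir34a at 446 ± 50.7, Mir34b at 33.5 ± 3.10, Mir449b at 1.81 ± 0.745 and Mir449c at 1.72 ± 0.607 (SD, n = 2 for each). Mir449a and Mir34c did not differ beyond their spread, and neither did Mir449b and Mir449c, whose 95% exact Poisson intervals overlapped in both libraries. The steps between Mir34c, Mir34a and Mir34b repeated in both libraries: Mir34c exceeded Mir34a 1.90-fold in replicate 1 and 2.04-fold in replicate 2, and Mir34a exceeded Mir34b 11.5-fold and 15.4-fold. Mir34b in turn lay above the upper ends of the intervals of Mir449b and Mir449c. These are ratios of reads, and how readily each sequence enters a library was not measured.

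Among all 1973 genes, of which 320 had 10 or more counts in each library, the ranks by level were as follows. Mir449a ranked 86th in replicate 1 and 115th in replicate 2, Mir34c 111th and 105th, and Mir34a 131st and 127th. Mir34b ranked 233rd and 239th, Mir449b 350th and 408th, and Mir449c 356th and 408th. By mean level Mir449a stood between Mir467e (1125 ± 6.52 CPM, SD, n = 2) and Mir341 (1103 ± 130), Mir34c between Mir540 (910 ± 19.0) and Mir467c (848 ± 24.5), and Mir34a between Mir20b and Mir323 (441 ± 24.0). Mir34b lay next to Mir452 and Mir1198. Mir449b stood between Mir3091 and Mir7033, and Mir449c between Mir299b and Mir344g, each of which had at most 11 counts in a library.

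The family as a whole held 0.271% of counts in replicate 1 (95% exact Clopper-Pearson interval 0.266 to 0.275) and 0.223% in replicate 2 (0.217 to 0.229), a mean of 0.247% ± 0.0336 (SD, n = 2). The 3 loci made unequal parts of it, and their parts were not the same in the 2 libraries. The Mir449 locus gave 54.7% of the family's counts in replicate 1 (53.9 to 55.5) and 33.0% in replicate 2 (31.7 to 34.3). The Mir34b/c locus gave 30.2% in replicate 1 (29.4 to 30.9) and 45.4% in replicate 2 (44.03 to 46.8). Mir34a, a locus of its own, gave 15.1% in replicate 1 (14.6 to 15.8) and 21.6% in replicate 2 (20.5 to 22.7). For none of the loci did the intervals of the 2 libraries overlap. The largest locus was Mir449 in replicate 1 and Mir34b/c in replicate 2. The 3 shares are parts of the same whole, so a change in any locus moves the shares of the others.

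**Figure D2:**
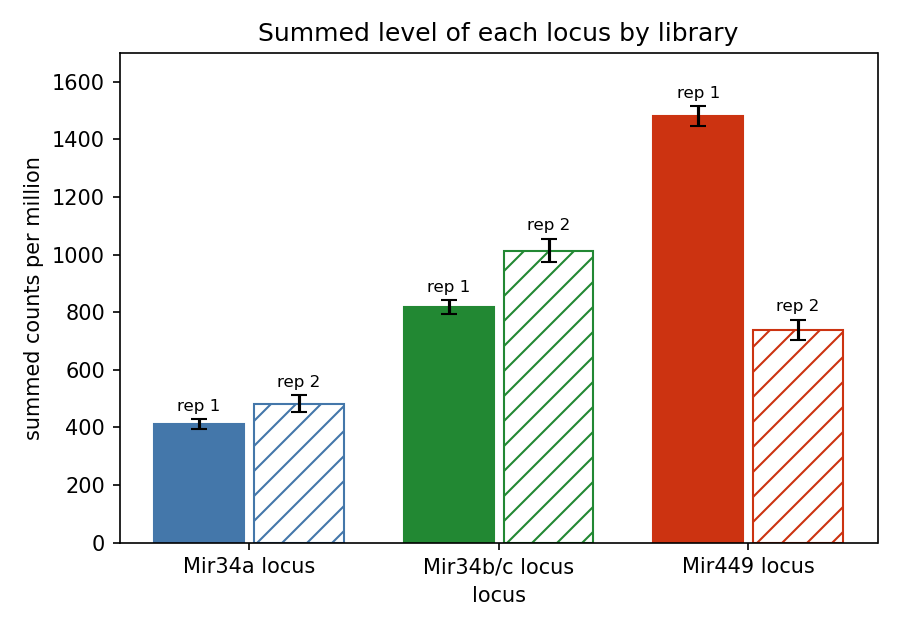
Summed CPM of each locus in replicate 1 (filled bars) and replicate 2 (hatched bars), with 95% exact binomial intervals. The Mir449 locus stands at 1481 CPM for replicate 1 and 737 for replicate 2, whereas the Mir34a and Mir34b/c loci are slightly lower in replicate 1 (410.3 and 817 CPM) than in replicate 2 (482 and 1013 CPM).

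Ratios within a library need no scaling between libraries, and they show which loci kept their proportions. Mir34a stood to the Mir34b/c locus as 0.502 to 1 in replicate 1 and 0.476 to 1 in replicate 2, a mean log2 ratio of -1.03 ± 0.056 (SD, n = 2). The Mir449 locus stood to the Mir34b/c locus as 1.81 to 1 in replicate 1 and 0.727 to 1 in replicate 2, so the mean log2 ratio of 0.20 ± 0.93 has a spread far above its size. To Mir34a the Mir449 locus stood as 3.61 to 1 in replicate 1 and 1.53 to 1 in replicate 2, a mean log2 ratio of 1.23 ± 0.88 that was positive in both libraries. With 2 libraries no test over samples was made for these means.

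The proportions were compared between the libraries with two-sided Fisher's exact tests on reads, adjusted over the 3 pairs of loci by the Benjamini-Hochberg method. Mir449 against Mir34b/c differed by 1.32 on the log2 scale, 2.49-fold (Fisher's exact test, adjusted p = 7.36e-136), and Mir449 against Mir34a by 1.24, 2.36-fold (Fisher's exact test, adjusted p = 1.16e-76). Mir34a against Mir34b/c differed by 0.08, 1.06-fold, and did not pass (Fisher's exact test, adjusted p = 0.226). Such tests compare the reads of these libraries, not conditions. As a description, the ratio of Mir449a to Mir34c changed more than that of nearly all other pairs of genes: of 17391 pairs among genes averaging 100 CPM or more, 1.26% changed by as much or more, against a median change of 0.25 on the log2 scale. The ratio of Mir34c to Mir34a changed by 0.10, which 79.3% of pairs reached or exceeded. The pairs share genes, so the 1.26% is not independent of how far Mir449a itself differed.

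Within the clusters 1 gene held nearly all counts. Mir449a made 99.7% of the counts of its locus in both libraries, 631-fold the counts of Mir449b in replicate 1 and 571-fold in replicate 2. The share of Mir449b and Mir449c together was 0.303% in replicate 1 (95% exact Clopper-Pearson interval 0.192 to 0.454) and 0.349% in replicate 2 (0.128 to 0.758). These intervals overlap, but the share in replicate 2 rests on 6 counts. They are too wide to show whether the proportions within the Mir449 locus were kept. The locus as a whole differed 2-fold between the libraries. Mir34c made 95.6% of its locus in replicate 1 and 96.9% in replicate 2. Its neighbour Mir34b made 4.37% in replicate 1 (3.77 to 5.03) and 3.09% in replicate 2 (2.43 to 3.87). These intervals overlap narrowly, which does not show that the shares were equal, and their difference was not tested. The ratio of Mir34c to Mir34b was 21.9 in replicate 1 and 31.4 in replicate 2, a 1.43-fold difference.

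Set beside other clusters, the Mir449 locus was among the more lopsided ones and differed most between the libraries. Clusters were taken as miRNA genes on 1 strand with gaps of at most 10000 bases, and 47 had at least 100 counts in each library. Their most abundant gene held a median of 90.7% of the cluster's counts. By that share the Mir449 locus ranked 4th and the Mir34b/c locus 19th. Reads that map to several places were not counted, so genes with near-identical copies elsewhere are undercounted. Clusters that hold such genes can look more lopsided than they are, and the median share and these ranks carry that limit. The Mir449 locus had a log2 ratio of replicate 1 to replicate 2 of 1.07, the largest in size of the 47, followed by the Mir181b-2 cluster at -0.72. The Mir34b/c locus, at -0.24, ranked 15th. The rank of the Mir449 locus in this ratio was also 1st with gaps of at most 5000 or 50000 bases. By share of the most abundant gene, the Mir449 locus then ranked 5th and 6th and the Mir34b/c locus 20th and 21st.

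**Figure D3:**
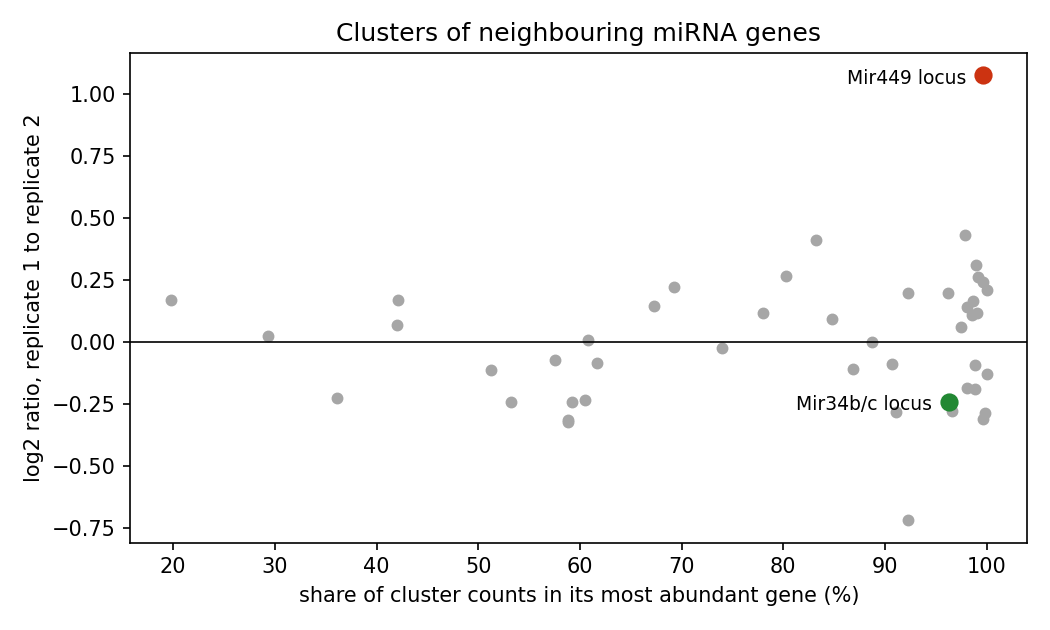
Each point is 1 of 47 clusters of neighbouring miRNA genes, placed by the share of its counts in its most abundant gene (mean of the libraries, percent) and by the log2 ratio of its summed level, replicate 1 to replicate 2. The Mir449 locus, at 99.7% and 1.07, lies above all other clusters, and the Mir34b/c locus, at 96.3% and -0.24, lies among them.

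Gene by gene, 3 of the 6 members stood apart between replicate 1 and replicate 2 beyond counting error. The two-sided exact binomial test took library sizes scaled by the trimmed mean of M-values (TMM) and covered the 404 genes whose counts summed to 10 or more. Of these, 163 were called at an adjusted p below 0.05, a background of 40.3%. Among genes of at least 100 CPM it was 136 of 187, or 72.7%. A called member is therefore nothing out of the ordinary at this depth, and the size of the difference says more. Mir449a was higher in replicate 1, its log2 ratio being 1.08 on the log2(CPM + 1) scale (exact binomial test, adjusted p = 3.68e-196). Mir34c was lower in replicate 1, its log2 ratio being -0.26 (exact binomial test, adjusted p = 4.17e-11), and so was Mir34a at -0.16 (exact binomial test, adjusted p = 0.00662). Calls in the direction of Mir449a made up 20.5% of genes tested, and calls in that of Mir34c and Mir34a 19.8%.

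The other 3 members did not pass. Mir34b had a log2 ratio of 0.25 (exact binomial test, adjusted p = 0.344), with a 95% interval from counting error of -0.14 to 0.67. Mir449b stood at 0.59 (adjusted p = 0.588 in the same exact test) and Mir449c at 0.50 (adjusted p = 0.737). With 3 counts each in replicate 2 their intervals, -0.96 to 3.40 and -1.11 to 3.29, hold both no difference and the ratio of Mir449a. The median log2 ratio of the 6 members was 0.38, against 0.01 over all 404 genes tested. It is the midpoint of Mir34b and Mir449c, neither of them called, and was 0.51 with a pseudocount of 0.1 CPM and 0.13 with 10 CPM, so its size is not settled.

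In size, the ratio of Mir449a ranked 10th of 404 genes and 2nd of the 187 genes with at least 100 CPM, behind the heart miRNA Mir208a. Those of Mir34c and Mir34a ranked 63rd and 95th of the 187. Mir34a was thus near the middle, while the ratio of Mir34c was larger in size than that of 66.3% of these genes. The median size over these genes was 0.16 and the 90th percentile 0.42. No other gene of at least 100 CPM had a ratio close to that of Mir449a. The nearest by difference in log2 ratio between the 2 libraries were Mir411 (0.61), Mir27a (0.60) and Mir369 (0.59). Below that cut ratios of this size did occur, as for Mir33 (73.3 CPM on average, log2 ratio 1.09) and Mir144 (76.6 CPM, 1.06). Nearest to Mir34c were Mir3102, Mir320 and Mir433, between -0.25 and -0.27, and nearest to Mir34a were Mir139, Mir135b and Mir485, between -0.16 and -0.17.

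**Figure D4:**
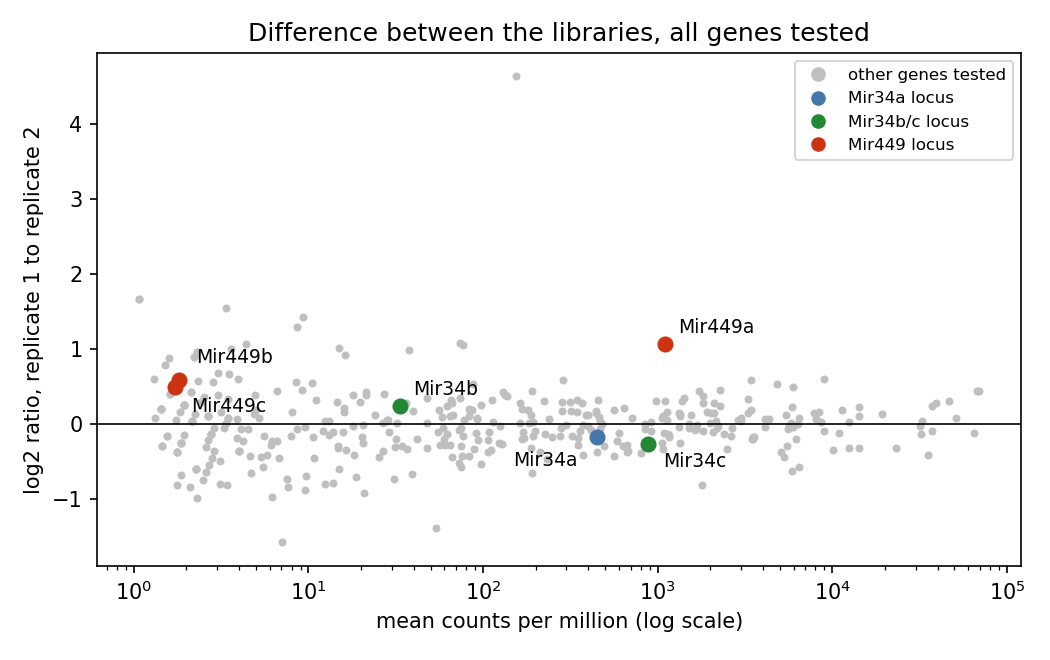
Log2 ratio of replicate 1 to replicate 2 against mean CPM (log axis) for the 404 genes tested, with members of the family coloured by locus. Mir449a, at 1.08, lies above the other genes of similar level, Mir34a and Mir34c lie just below 0, and the gene near 4.6 is Mir208a.

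Counting error is not the only spread between the libraries, and a second error was therefore tried. The common dispersion that edgeR estimated from the 2 libraries was 0.0327, a coefficient of variation of 18.1%. With it added to counting error (edgeR exact test), 1 of 404 genes passed, Mir208a, or 0.248%, and 16 had an unadjusted p under 0.05, or 3.96%. Mir449a was among the 16 (unadjusted p = 0.00424, adjusted p = 0.409 in that exact test), and Mir34a, Mir34b, Mir34c, Mir449b and Mir449c had an adjusted p of 1. Since that dispersion comes from the same 2 libraries that are compared, a member that does not pass is not thereby shown to be stable. The coefficients of variation of the members themselves were 47.5% for Mir449a, 16.1% for Mir34c, 11.4% for Mir34a and 9.25% for Mir34b.

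Markers of other cell types were read beside these values, since in whole lung fewer cells of a type and less RNA per cell cannot be told apart. The heart muscle list moved in the same direction as Mir449a: its 3 members were all higher in replicate 1, with summed levels of 361 CPM in replicate 1 and 42.0 CPM in replicate 2, most of it Mir208a (299 and 11.6 CPM). Higher in replicate 1 as well were both erythroid members (497 and 392 CPM in sum), of which Mir144 had a log2 ratio of 1.06, close to that of Mir449a, the endothelial Mir126a (76033 and 58438 CPM), Mir143 but not Mir145a of smooth muscle (79791 and 62023 CPM in sum) and the neuroendocrine Mir375 (3555 and 3261 CPM). The hepatocyte miRNA Mir122 was lower in replicate 1 (22.4 and 39.5 CPM), and the 3 white blood cell members were split, 1 higher, 1 lower and 1 not called (691 and 662 CPM in sum). Of the neuronal list 5 of 6 genes were in the table: Mir124a-1, Mir124a-2, Mir124a-3 and Mir9-2 had 0 counts in both libraries and Mir9-3 had 1 in each. These genes come in copies with the same mature sequence, whose reads map to several places and were not counted, so their zeros do not show absence. Calls higher in replicate 1 made up 20.5% of all genes tested, and calls lower 19.8%. Among genes of at least 100 CPM 72.7% were called in either direction, so calls of abundant markers are no result about a cell type. The part of any of these cell types in the values of the family was not tested.

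The miR-200 family, which marks epithelium in general, was summed in the same libraries for comparison. Its 5 members summed to 33294 CPM in replicate 1 and to 33729.8 in replicate 2. The miR-34/miR-449 family was 12.3-fold less abundant than the miR-200 family in replicate 1 and 15.1-fold less in replicate 2. Relative to miR-200 the Mir449 locus differed 2.04-fold between the libraries, against 1.22-fold for the Mir34b/c locus and 1.16-fold for Mir34a, both of these in the opposite direction. Of the 5 miR-200 genes Mir429 was called higher in replicate 1 (log2 ratio 0.24), Mir200c, Mir141 and Mir200b lower (-0.11, -0.07 and -0.04), and Mir200a, at -0.08, was not called. All 5 average over 100 CPM, where 72.7% of genes were called, so these 4 calls are near the background.

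Since Mir34a and the Mir34b/c locus respond to p53, a list of p53-responsive miRNAs was read with them. Of its 12 genes 11 were tested; 3 were called higher in replicate 1, 5 lower and 3 not called, with a median log2 ratio of -0.10. Beside the 40.3% of all tested genes and the 72.7% of genes of at least 100 CPM that were called, these 8 calls are no result about the list. Higher were Mir143 (0.44), Mir192 (0.36) and Mir15a (0.12). Lower beside Mir34c and Mir34a were Mir194-2 (-0.51), Mir16-1 (-0.17) and Mir107 (-0.10). Mir34b (0.25), Mir145a (0.01) and Mir215 (-0.60) were not called, and Mir194-1, with 1 count in replicate 1 and 4 in replicate 2, was not tested. Mir16-1, Mir194-1 and Mir194-2 have near-identical copies elsewhere, so their counts are uncertain. In level Mir34c at 881 CPM and Mir34a at 446 CPM lay below Mir143 (69405 ± 12609.7 CPM, SD, n = 2), Mir15a (5450.0 ± 144), Mir16-1 (3516 ± 410.1), Mir107 (2077 ± 168) and Mir145a (1502 ± 45.8), and above Mir192 (74.0 ± 10.6) and Mir194-2 (73.2 ± 20.8).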

How the data were processed

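MicroRNAs under 30 nt were sequenced from total RNA of 2 lung libraries. The authors deposited raw counts per miRNA gene, from alignments to mm10 with GENCODE M4 per the deposited readme. Names of an aligner or counter were not given in the sources. Reads summed to 10200412 and 4544184; multimapping reads (32.9% and 33.1%) were assigned to no gene, and no-feature, ambiguous and unmapped reads (12.7% and 11.7% unmapped, 2.63% and 2.44% with no feature on either strand) stayed out of library sizes. The files have no header: that the column used holds counts on the strand of the gene was inferred from the values, since the first count column equals the sum of the others for every gene (0 columns lacked a sample). Of 1973 identifiers 1894 matched GENCODE M21 symbols.

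CPM used all gene-strand counts. TMM factors came from the 404 genes with at least 10 counts over both libraries; exact binomial tests, Benjamini-Hochberg adjustment (threshold 0.05) and log2 ratios of replicate 1 to replicate 2 (pseudocount 1 CPM) followed, with the steps tested on simulated data. Shares carry 95% Clopper-Pearson intervals. p-values of the exact binomial and Fisher's exact tests set the difference between the libraries' reads against counting error only. They do not measure the spread between lungs. The members, the lists and the named genes (members, genes with a member's seed, neighbours in level, nearest ratios, p53 and miR-200 lists) were chosen with earlier results of these data known. Mir208a, Mir33 and the Mir181b-2 cluster were named after their values were seen. Software was R 4.3.3, edgeR 4.0.16, DESeq2 1.42.0, Python 3.11.15 and scipy 1.17.1.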

Additional observations from a re-analysis of the deposited data

How the results depend on the processing

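With multimapping and other unassigned mapped reads in the denominator, mean levels were 258 CPM for Mir34a, 19.4 for Mir34b, 510.1 for Mir34c, 1.05 for Mir449b and 0.991 for Mir449c, and the shares of the family, the Mir34a locus and the Mir34b/c locus were 0.143%, 0.0258% and 0.0529%. Mir449a fell as well, from 1106 to 639 CPM, and the share of the Mir449 locus from 0.111% to 0.0641%. Both of these moves were smaller than the wide SD between the libraries. With the common dispersion added to counting error (edgeR exact test), 1 gene differed between the libraries, 1 higher in replicate 1 and 0 in replicate 2, and 0 members differed: Mir449a (1.08, adjusted p = 0.409), Mir34c (-0.26, adjusted p = 1) and Mir34a (-0.16, adjusted p = 1) no longer passed. That dispersion comes from the same 2 libraries, so members that did not pass are not thereby shown to be stable. Leaving out a replicate (with 2, it always moves a mean by less than the SD) and the pseudocount (which the test does not use) could not change a verdict. Of the other 126 alternative values 111 stayed on their side of the threshold, moved by less than the spread between the libraries or, for counts and ranks, kept a similar size. Some of these could hardly move, since members had at most 1 count on the opposite strand in a library. Leaving out each replicate in turn gave Mir449a levels of 735 to 1477 CPM, and the log2 ratio of the Mir449 to the Mir34b/c locus (-0.46 to 0.86) and of Mir449a to Mir34c (-0.42 to 0.92) was negative without replicate 1 and positive without replicate 2, so neither has a settled direction. Calls split 83 to 80 between higher in replicate 1 and in replicate 2, 65 to 112 with library totals and 97 to 72 with TMM factors over all genes, an alternative added after the data had been seen, as were the cluster gaps. Scaling shifted all log2 ratios by 0.07 against library totals; Mir449a then had 1.01. No paired analysis was possible because there is 1 group. Depth limits Mir449b and Mir449c, whose log2 ratios were 0.88 and 0.76 with a pseudocount of 0.1 CPM and 0.14 and 0.12 with 10 CPM.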
